A study of Homo sapiens with 6 samples.

Results

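The genes described here are 51 components of the machinery that licenses replication origins and copies DNA at the fork in U-2 OS cells, measured here by bulk RNA-seq. They were chosen by name, as genes of origin licensing, the replicative helicase, the polymerases, the sliding clamp and the factors that act beside them, by a rule that uses no measured value. All 51 were found among the 21447 genes of the deposited files, and all 51 passed the filter on low counts that left 14322 genes for testing. U-2 OS is an established human osteosarcoma cell line, and the libraries came from 2 groups of unsynchronized cultures. One group of 3 libraries came from untreated cells, and the other group of 3 libraries came from cells that had received 4 Gy of ionizing radiation (IR) 24 h before RNA was taken. No allele, transgene or further agent is named in the labels for either group, and the study describes the samples as independent. The labels name no separate cultures, so P values measure the spread between these libraries, part of which may be technical.

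Replication of nuclear DNA proceeds in ordered steps. In G1 phase the origin recognition complex (ORC) binds DNA and, with CDC6 and CDT1, loads the ring-shaped MCM2-7 helicase, a step called licensing that geminin blocks after S phase has begun. The kinase of CDC7 and DBF4, together with CDC45, the GINS complex and Treslin, then turns the loaded ring into an active helicase, behind which polymerases alpha, delta and epsilon, the clamp PCNA and its loader RFC, RPA, FEN1 and ligase I synthesize and join the new strands. Many of these genes are known to be transcribed under E2F factors as cells enter S phase.

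The estimated counts totalled between 18573309 and 22953834 in 5 libraries and 45308792 in IR replicate 3. That library also stood apart from its replicates, with a chi-square per gene of 29.1 and 32.3 against IR replicates 1 and 2, which differed from each other by 5.96. Its deposited table bears a mark that could stand for a repeat, and whether it was sequenced again is not given in the sources used here. Each of the 51 genes had at least 520 estimated counts in every library, and the biological coefficient of variation was 0.0931 over all genes. The mesenchymal markers COL1A1 (2684 to 3509 CPM, here counts over library size after TMM scaling), SPARC (1609 to 1695 CPM) and VIM (1465 to 1794 CPM) were abundant, whereas COL1A2 (0.978 to 2.14 CPM) was low and the osteoblast markers SP7 and IBSP were at or near 0. Of the other bone-lineage genes, RUNX2 (11.3 to 16.1 CPM) was lower after IR (log2 fold change -0.36, edgeR adjusted P = 0.0250) and ALPL (1.70 to 4.96 CPM) was higher (1.09, 0.00716). The T lymphocyte marker CD3E was at 0 in all 6 libraries, PTPRC did not exceed 1.76 CPM, and EPCAM did not exceed 10.6 CPM. CD68 (6.60 to 16.7 CPM) and CDH1 (1.87 to 3.43 CPM) were low and higher after IR (adjusted P = 0.0189 and 0.0465 by the quasi-likelihood test of edgeR), and the part of these marker differences in the results below was not tested.

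After IR, 22 of the 51 genes (43.1%) were lower and 0 were higher at an adjusted P under 0.05 (edgeR quasi-likelihood test, Benjamini-Hochberg over all tested genes), against a background of 14.5% lower and 15.5% higher among all 14322 tested genes. At an unadjusted P under 0.05, 28 members were lower and 2 were higher, CDT1 and POLD1. The differences were small. The members' median log2 fold change was -0.18, beside 0.01 for all tested genes, the lowest value was -0.60, and the lower bound of the 95% interval lay above -1 for all 51. In 36 members (70.6%) all 3 IR libraries lay below all 3 untreated libraries, against 23.3% of all tested genes, and in 0 members did they all lie above. Library by library against the untreated mean, the members' median was -0.21, -0.17 and -0.19 on the log2 scale in IR replicates 1, 2 and 3, so the shift was present in each of them. Without IR replicate 3, 25 members were lower, beside 1892 of all 14495 genes then tested. Without untreated replicate 1, 13 members were lower, beside 1287 of 14539. In bulk RNA, fewer cells in S phase and less of these transcripts per cell cannot be told apart.

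**Figure D1:**
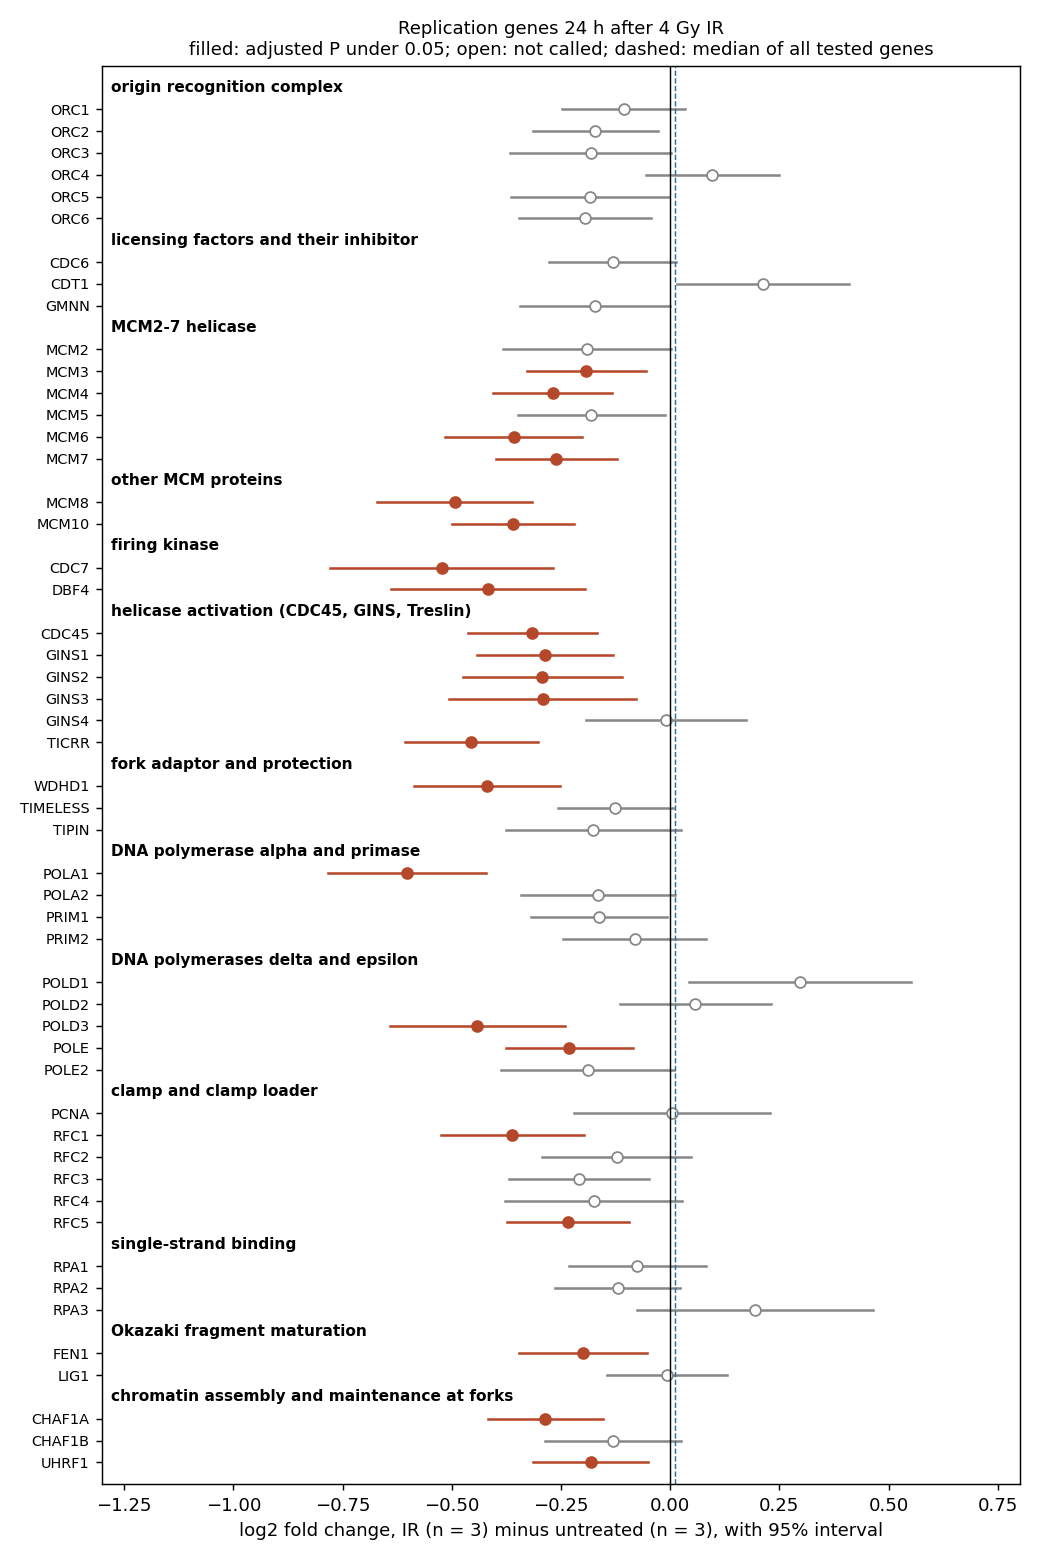
Log2 fold change (x axis, IR minus untreated, 3 libraries each, log2 scale) of the 51 replication genes with 95% intervals, grouped by role; filled points passed an adjusted P under 0.05, open points did not, and the dashed line is the median of all tested genes. The 22 filled points all lie to the left of 0, from -0.60 for POLA1 to -0.18 for UHRF1, and the 6 points to the right of 0 are all open (CDT1, POLD1 and POLD2 lie left of 0 once the GC trend is removed, and ORC4 and POLD2 do so with the effective length offset).

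Because E2F sites are a known feature of this gene class, the promoter windows of the members were searched for 4 spellings of the E2F motif (TTTCCCGC, TTTCGCGC, TTTGCCGC and TTTGGCGC, on both strands). Windows of 300 bases, 250 before to 50 after the start, were taken from RefSeq (GRCh38.p14) and matched by symbol for 45 members, of which 11 have several. MCM4, MCM5, GINS4, POLD3, RPA2 and RPA3 had no entry. At least 1 match was present in 22 of the 45 (48.9%), beside 3.31% of all 35116 promoters and 6.47% of the tested genes that have one. The 160 bases upstream of the start are shown for 3 genes that were lower after IR (MCM6, CDC7 and POLA1) and 3 that did not pass the test (PCNA, CDT1 and GMNN), because all 6 carry the motif there whichever way they were called. They lie at chr2:135876444-135876603 (minus strand) for MCM6, chr1:91500952-91501111 (plus) for CDC7, chrX:24693758-24693917 (plus) for POLA1, chr20:5126623-5126782 (minus) for PCNA, chr16:88803629-88803788 (plus) for CDT1 and chr6:24775253-24775412 (plus) for GMNN. They are written 5′ to 3′ along the gene's strand, and capitals mark the matches.
MCM6: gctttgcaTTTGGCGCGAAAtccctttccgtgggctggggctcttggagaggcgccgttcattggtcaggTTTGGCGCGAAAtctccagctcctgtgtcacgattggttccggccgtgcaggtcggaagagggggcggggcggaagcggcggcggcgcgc
CDC7: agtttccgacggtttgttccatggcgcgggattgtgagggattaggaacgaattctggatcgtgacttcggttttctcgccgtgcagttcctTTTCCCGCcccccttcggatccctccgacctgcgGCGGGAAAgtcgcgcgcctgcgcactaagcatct
POLA1: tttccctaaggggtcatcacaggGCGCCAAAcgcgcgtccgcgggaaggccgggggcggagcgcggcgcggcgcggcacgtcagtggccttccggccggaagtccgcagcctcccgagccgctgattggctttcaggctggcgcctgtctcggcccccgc
PCNA: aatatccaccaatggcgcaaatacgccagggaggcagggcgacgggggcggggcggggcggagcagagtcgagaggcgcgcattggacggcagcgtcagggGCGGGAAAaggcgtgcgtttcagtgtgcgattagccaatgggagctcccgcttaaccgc
CDT1: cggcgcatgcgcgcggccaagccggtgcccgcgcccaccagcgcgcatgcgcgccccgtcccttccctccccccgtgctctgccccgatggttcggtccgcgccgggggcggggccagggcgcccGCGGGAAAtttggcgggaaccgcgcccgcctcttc
GMNN: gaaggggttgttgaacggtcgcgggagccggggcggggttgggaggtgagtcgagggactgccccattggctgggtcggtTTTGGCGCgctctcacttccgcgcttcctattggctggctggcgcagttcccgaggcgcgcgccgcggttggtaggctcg

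In MCM6 the 4 matches form 2 stretches of 12 bases, in each of which a match on one strand overlaps a match on the other. CDC7 holds 2 separate matches, and the other 4 windows hold 1 each. Called members were found both with and without the motif. Of the 22 members with a match 11 were lower (median log2 fold change -0.19), and of the 23 members without one 9 were lower (median -0.17). This split was not tested. A match is a description of letters, and no binding was measured here. The other motifs searched were the CCAAT box (CCAAT), found in 27 of the 45 members (60.0%), 34.6% of all promoters and 43.2% of the tested genes, the CHR element (TTTGAA), found in 1 member, DBF4 (2.22%), and 15.2% of all promoters, and the TATA box (TATAAA), found in 2 members, CDC45 and GINS3 (4.44%), and 11.5% of all promoters. Of the 27 members with a CCAAT box 15 were lower (median log2 fold change -0.19), and of the 18 without one 5 were lower (median -0.18), a split that was not tested.

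Among the ORC genes, whose products mark origins, 0 of 6 passed the test. ORC6, the subunit least tightly bound to the others, came closest, with a log2 fold change of -0.19 (SE 0.068, edgeR adjusted P = 0.0532). ORC2, ORC3 and ORC5 had values of -0.17, -0.18 and -0.18, and ORC1 -0.11. On the scale with the GC trend removed ORC2, ORC3 and ORC5 were at -0.038, -0.0088 and -0.063, and ORC6 and ORC1 at -0.11 and -0.12. In these 5 genes the IR libraries all lay below the untreated libraries on the TMM scale. ORC4 was the exception, with 61.3 ± 2.56 CPM (mean ± SD, n = 3) in untreated and 65.6 ± 3.20 CPM in IR libraries, overlapping groups and a log2 fold change of 0.097 (95% interval -0.056 to 0.25). Its direction depended on the scale, as described with base composition and transcript length below.

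The licensing factors and their inhibitor gave no call. CDC6, the ATPase that acts with ORC to load MCM2-7 (ENSG00000094804, chr17:40287879-40304657), measured 151, 139 and 153 CPM in untreated replicates 1, 2 and 3 and 138, 137 and 129.7 CPM in IR replicates 1, 2 and 3. The IR values all lay below the untreated values, by a margin of under 1 CPM at the closest, and the log2 fold change was -0.13 (SE 0.066, edgeR adjusted P = 0.155). CDT1, which brings MCM2-7 to the origin and is destroyed in S phase (ENSG00000167513, chr16:88803789-88809258), was at 37.7, 41.2 and 42.5 CPM in untreated and 47.4, 41.7 and 51.2 CPM in IR libraries. IR replicate 2 lay within the untreated range and the other two IR libraries above it (log2 fold change 0.21, SE 0.089, edgeR adjusted P = 0.0959, and -0.17 with the GC trend removed). GMNN encodes geminin, the protein that binds and inhibits CDT1 (ENSG00000112312, chr6:24774931-24786099). Its libraries read 37.5, 36.3 and 41.6 CPM untreated and 33.6, 35.6 and 33.2 CPM after IR, without overlap but with a log2 fold change of only -0.17 (edgeR adjusted P = 0.119). CDC6 was at -0.055 and GMNN at -0.060 with the GC trend removed.

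All 6 genes of the MCM2-7 ring had log2 fold changes below 0, and 4 of them were called lower (6 with the GC trend removed and 0 with the effective length offset, both described below). MCM6 (ENSG00000076003, chr2:135839626-135876443) fell by 22.0%, from 168, 159.8 and 166 CPM in the untreated libraries to 124, 121 and 139 CPM in the IR libraries (log2 fold change -0.36, SE 0.071, edgeR adjusted P = 0.00506). The highest IR value was that of replicate 3, still below every untreated value. MCM4 (-0.27), MCM7 (-0.26) and MCM3 (-0.19) also fell, whereas MCM2 (-0.19, edgeR adjusted P = 0.124) and MCM5 (-0.18, 0.0974) did not pass the test. For MCM2 this rested on IR replicate 3, at 186 CPM beside 151 and 152 CPM in the other two, and without that library MCM2 was lower, at -0.30 (adjusted P = 0.00532). The CPM of the 6 genes summed to 1473 ± 22.7 in untreated and 1248 ± 55.5 in IR libraries (mean ± SD, n = 3), so the mean of the sum fell by 15.3%.

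The subunits enter the ring in equal numbers. Per transcript length, in the TPM deposited by the authors and summed over all annotated transcripts of a gene, MCM4 was at 401 ± 42.5 TPM in untreated cells (mean ± SD, n = 3), MCM3 at 189 ± 18.3 TPM and MCM2 at 70.1 ± 2.94 TPM. Most of the MCM4 sum in TPM was assigned to transcripts not annotated as protein coding. Among them MCM4-204, annotated as a target of nonsense-mediated decay, was at 152 TPM, while the coding transcript MCM4-222 was at 58.8 TPM. In estimated counts, which are not scaled for length, MCM4-222 stood higher. It had 3247, 4023 and 3342 counts in untreated replicates 1, 2 and 3, and MCM4-204 had 405, 471 and 400. Over coding transcripts alone MCM3 was at 187 ± 17.9 TPM, MCM7 at 126 ± 1.37 TPM, MCM5 at 121 ± 12.9 TPM, MCM4 at 106 ± 4.06 TPM, MCM6 at 65.7 ± 0.991 TPM and MCM2 at 42.3 ± 2.11 TPM in untreated cells. MCM7 and MCM5 did not differ beyond their spread, and the place of MCM4 in this order thus depended on how reads were divided among transcripts. Over all 51 members the untreated means ranged from 13.3 TPM for CHAF1B to 401 TPM for MCM4, with a median of 59.6 TPM.

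**Figure D2:**
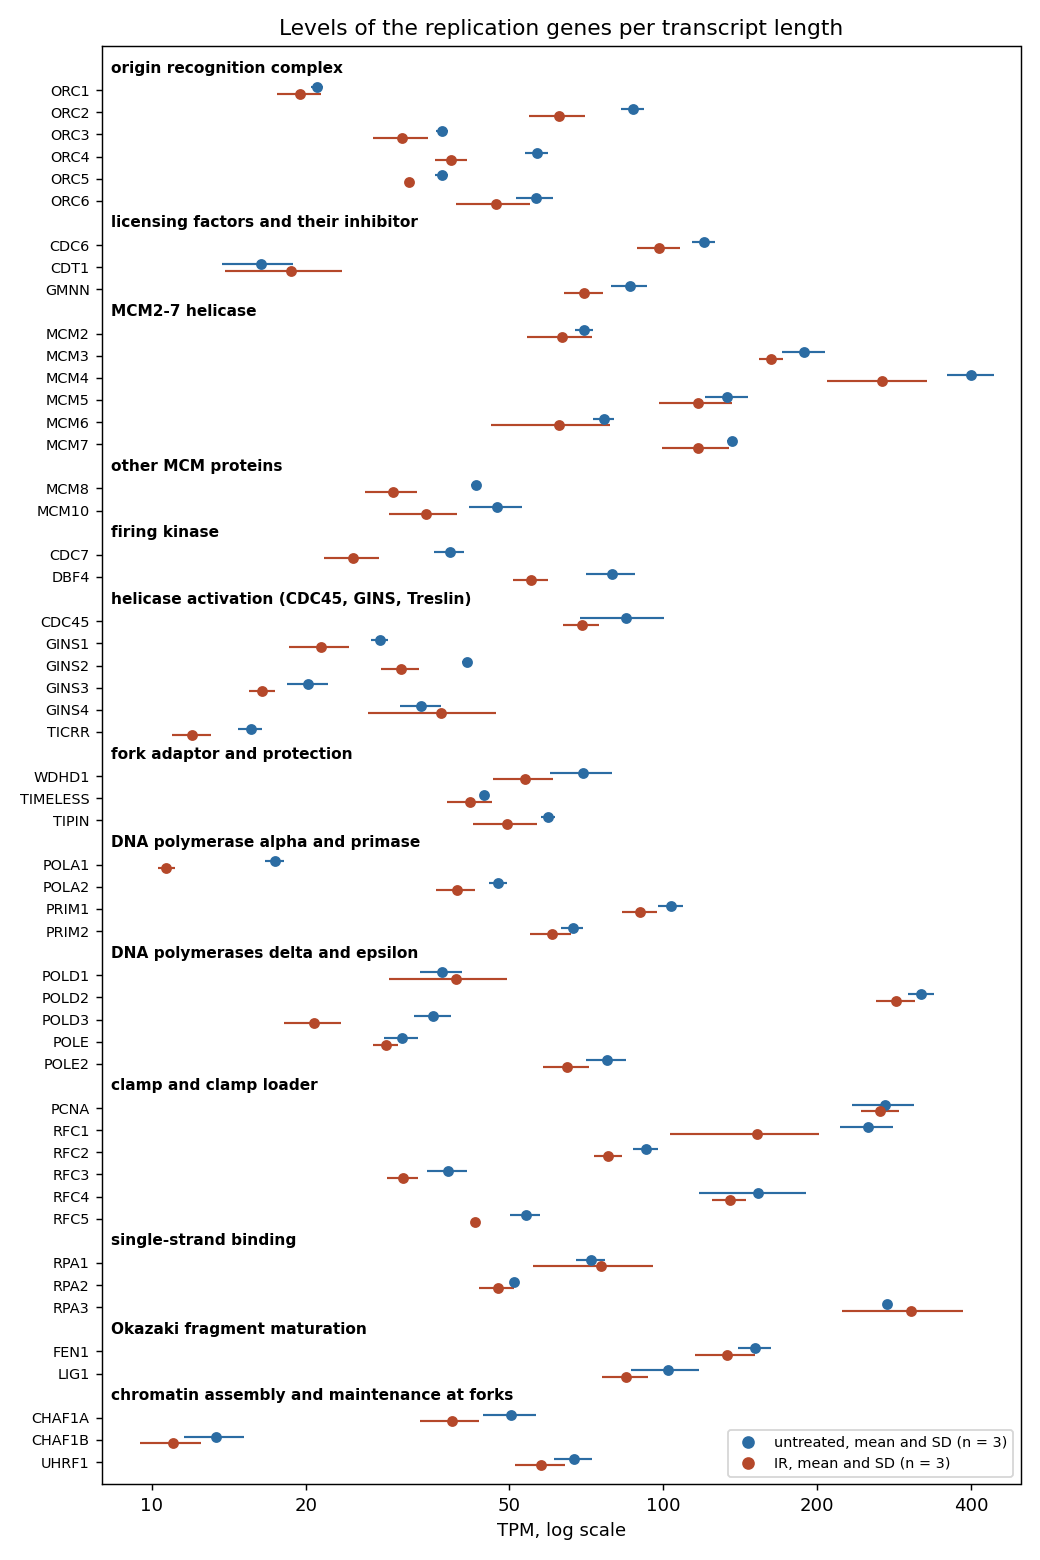
Deposited TPM (x axis, log scale) of the 51 genes by role, with mean and SD of the 3 untreated libraries and of the 3 IR libraries. Values are sums over all annotated transcripts of a gene, and MCM4, the highest at 401 TPM in untreated cells, is at 106 TPM over its coding transcripts alone.

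MCM8 and MCM10 share a family name with the ring but not its place in it, and both were lower. MCM8, which pairs with MCM9 in another helicase used in recombination and repair (ENSG00000125885, chr20:5950652-5998977), read 116, 119 and 119 CPM in untreated and 93.0, 83.2 and 75.5 CPM in IR libraries. The groups were well apart and the gene fell by 28.9% (log2 fold change -0.49, SE 0.080, edgeR adjusted P = 0.00218). MCM10, a scaffold needed for the helicase to start unwinding (ENSG00000065328, chr10:13161558-13211110), went from 87.5, 83.2 and 87.0 CPM to 68.3, 67.7 and 65.0 CPM, a log2 fold change of -0.36 (SE 0.063, edgeR adjusted P = 0.00289) with tight replicates in both groups.

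Both subunits of the kinase that fires origins were lower. The calls held for both with the effective length offset, and for CDC7 alone with the GC trend removed. CDC7, the catalytic subunit (ENSG00000097046, chr1:91500851-91525764), measured 64.9, 66.0 and 74.0 CPM in the untreated libraries and 52.9, 51.8 and 38.7 CPM in the IR libraries. Every IR value was below every untreated value, and IR replicate 3 was far below the other two. The log2 fold change was -0.52 (SE 0.12, edgeR adjusted P = 0.00849), and -0.38 without that library (adjusted P = 0.00341). DBF4, the regulatory subunit that activates CDC7, had a log2 fold change of -0.42 (SE 0.10, edgeR adjusted P = 0.0121), with 77.7 ± 8.39 CPM in untreated and 58.4 ± 6.28 CPM in IR libraries (mean ± SD, n = 3). Most of its TPM was assigned to DBF4-204 and DBF4-203, both annotated as targets of nonsense-mediated decay. Their means were 52.2 and 23.5 TPM in untreated and 42.3 and 3.51 TPM in IR libraries. The coding transcript DBF4-201 was at 1.26 TPM in untreated and 0.874 TPM in IR libraries.

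Of the 6 genes of helicase activation 5 were lower (3 with the GC trend removed and 0 with the effective length offset). TICRR encodes Treslin, which carries CDC45 to loaded helicases (ENSG00000140534, chr15:89575469-89631056), and it read 75.4, 84.8 and 82.3 CPM in untreated and 59.6, 59.8 and 57.6 CPM in IR libraries. The 3 IR values lay within 3 CPM of each other, and TICRR fell by 27.0% (log2 fold change -0.45, SE 0.069, edgeR adjusted P = 0.00157). CDC45, a stable subunit of the active helicase (ENSG00000093009, chr22:19479457-19520612), was at 100.4, 91.3 and 95.7 CPM before and 78.2, 79.2 and 73.6 CPM after IR (log2 fold change -0.32, SE 0.067, edgeR adjusted P = 0.00696). Of the 4 GINS subunits, which complete that helicase, GINS1 (-0.29), GINS2 (-0.29) and GINS3 (-0.29) fell by nearly the same amount. GINS4 had a log2 fold change of -0.010 (95% interval -0.19 to 0.17, 0.0084 with the GC trend removed and 0.17 with the effective length offset). It measured 91.0 ± 6.51 CPM in untreated and 90.2 ± 7.90 CPM in IR libraries. Its interval overlapped those of GINS1 (-0.44 to -0.13), GINS2 (-0.48 to -0.11) and GINS3 (-0.51 to -0.078), and the difference between subunits was not tested.

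At the fork, WDHD1, the adaptor that ties polymerase alpha to the helicase (ENSG00000198554, chr14:54938949-55027105), was lower. Its values were 88.6, 96.3 and 91.0 CPM in untreated and 74.4, 68.5 and 63.7 CPM in IR libraries, a log2 fold change of -0.42 (SE 0.075, edgeR adjusted P = 0.00326), with the groups clearly separate. TIMELESS and TIPIN, the pair that protects stalled forks, had log2 fold changes of -0.13 and -0.18 and gave no call.

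POLA1, the catalytic subunit of polymerase alpha, which lays the first DNA on each primer (ENSG00000101868, chrX:24693873-24996986), had both the lowest P value and the lowest log2 fold change of the 51 genes on the TMM scale, though TICRR (-0.51) lay below it (-0.49) with the GC trend removed, and POLD3 (-0.72) and RFC1 (-0.67) did so with the effective length offset (-0.66 for POLA1). It measured 54.0, 60.3 and 54.8 CPM in untreated replicates 1, 2 and 3 and 38.6, 39.2 and 33.9 CPM in IR replicates 1, 2 and 3. No untreated value came near an IR value, and POLA1 fell by 34.2% (log2 fold change -0.60, 95% interval -0.78 to -0.42, edgeR adjusted P = 0.00108). With any 1 library left out its log2 fold change lay between -0.65 and -0.53. The other subunits of the same enzyme gave no call, with log2 fold changes of -0.16 for POLA2, the accessory subunit, -0.16 for PRIM1, the catalytic primase subunit, and -0.081 for PRIM2, the large primase subunit (0.064 with the GC trend removed). PRIM1 was at -0.0014 and POLA2 at -0.14 on that scale.

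The polymerases that extend the strands were mixed. POLD3, an accessory subunit of polymerase delta that binds PCNA (ENSG00000077514, chr11:74493851-74669117), went from 50.1, 50.3 and 55.8 CPM in untreated to 42.0, 39.4 and 34.0 CPM in IR libraries, without overlap (log2 fold change -0.44, SE 0.090, edgeR adjusted P = 0.00599). POLD1, the catalytic subunit of the same enzyme (ENSG00000062822, chr19:50384204-50418018), had the highest log2 fold change of the members on the TMM scale, 0.30 (SE 0.11), which turned to -0.10 with the GC trend removed, and did not pass the test (edgeR adjusted P = 0.0735). Its libraries read 72.7, 76.8 and 80.8 CPM untreated and 88.4, 80.3 and 113 CPM after IR. IR replicate 2 fell within the untreated range, IR replicate 3 was far above the rest, and without IR replicate 3 the value was 0.14 (adjusted P = 0.172). The second subunit, POLD2, had a log2 fold change of 0.057 (-0.15 with the GC trend removed and -0.11 with the effective length offset). POLE, the catalytic subunit of the leading-strand polymerase epsilon, was lower, at -0.23 on the log2 scale (SE 0.066, edgeR adjusted P = 0.0246), and POLE2, its second subunit, had a log2 fold change of -0.19 with no call. POLE was at -0.35 and POLE2 at -0.0092 with the GC trend removed.

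PCNA, the sliding clamp that holds polymerases on DNA and the protein the study tags to follow replication (ENSG00000132646, chr20:5114953-5126626), showed no difference that could be detected. Its libraries read 193, 181 and 239 CPM untreated and 189, 215 and 211 CPM after IR. The 3 IR values all lay between the lowest and the highest untreated value, with untreated replicate 3 above all others. The log2 fold change was 0.0044 (SE 0.10, edgeR adjusted P = 0.979), with a 95% interval of -0.22 to 0.23. That interval overlapped those of RFC1 (-0.52 to -0.20) and MCM6 (-0.51 to -0.20) but not that of POLA1 (-0.78 to -0.42). Differences between these genes were not tested. RFC1, the large subunit of the loader that opens PCNA (ENSG00000035928, chr4:39287456-39366375), was at 186, 186 and 194 CPM in untreated and 158, 149 and 134 CPM in IR libraries, a log2 fold change of -0.36 (SE 0.074, edgeR adjusted P = 0.00592). Of its small subunits RFC5 was lower (-0.23), and RFC3 (-0.21, edgeR adjusted P = 0.0522), RFC4 (-0.17) and RFC2 (-0.12) did not pass the test. RFC3, RFC4 and RFC2 were at -0.030, -0.049 and -0.17 with the GC trend removed.

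**Figure D3:**
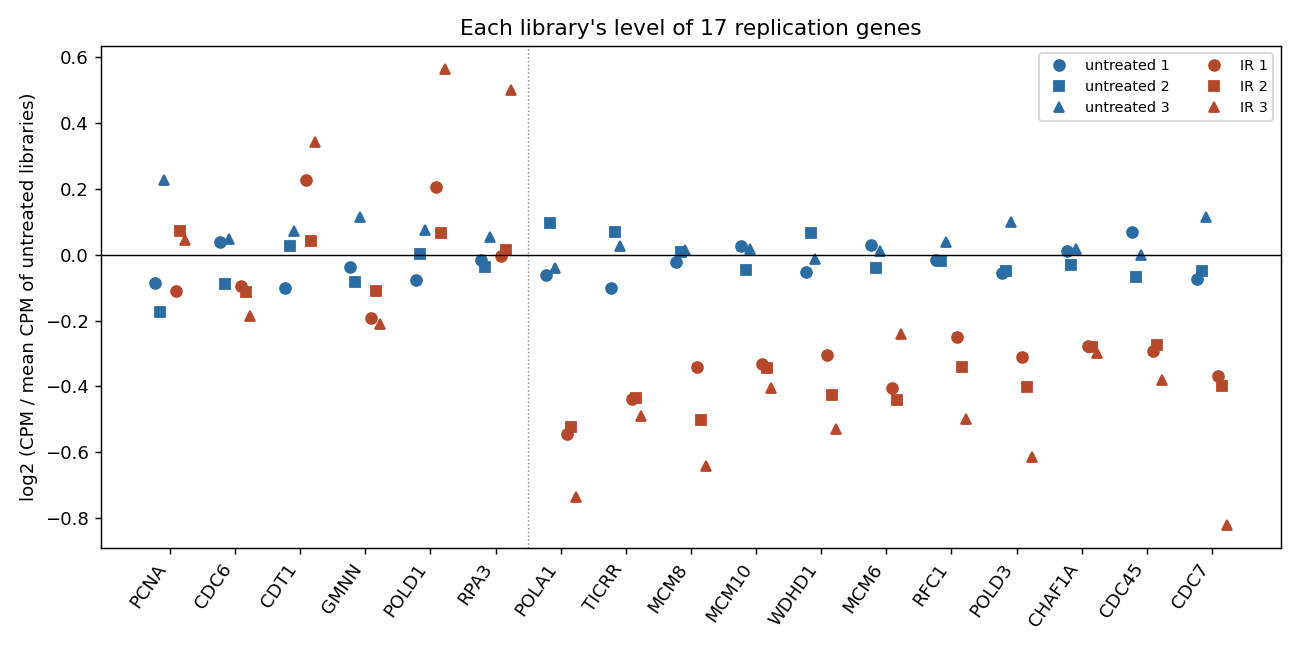
Level of each of 17 replication genes in each library, as log2 of its CPM over the mean CPM of the 3 untreated libraries (y axis, log2 scale; marker shape gives the replicate, colour the group). Right of the dotted line are the 10 genes of lowest P and CDC7, all called lower, in which the IR libraries sit wholly below the untreated libraries; left of it are 6 genes with no call, in which the groups overlap except for CDC6 and GMNN.

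RPA, which coats single-stranded DNA, gave no call in its 3 subunits. RPA1 and RPA2 had log2 fold changes of -0.075 (0.10 with the effective length offset) and -0.12. RPA3, the smallest subunit (ENSG00000106399, chr7:7636518-7718607), measured 80.5, 79.3 and 84.5 CPM in untreated and 81.2, 82.2 and 115 CPM in IR libraries. Only IR replicate 3 stood above the untreated range, and the log2 fold change of 0.19 (SE 0.12) was 0.0064 without it. FEN1, the nuclease that trims Okazaki fragments, was lower, at -0.20 on the log2 scale (edgeR adjusted P = 0.0445), whereas LIG1, the ligase that joins them, had 125 ± 2.67 CPM in untreated and 124 ± 4.67 CPM in IR libraries and a log2 fold change of -0.0068 (95% interval -0.14 to 0.13). With the GC trend removed LIG1 was called lower too (-0.19, adjusted P = 0.0334), and with the effective length offset it was at -0.22 with no call.

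Behind the fork, CHAF1A, the large subunit of the histone chaperone CAF-1 (ENSG00000167670, chr19:4402640-4445018), was lower. It read 96.7, 93.8 and 97.0 CPM in untreated and 79.1, 78.9 and 77.9 CPM in IR libraries (log2 fold change -0.29, SE 0.059, edgeR adjusted P = 0.00645). CHAF1B, its partner subunit, had a log2 fold change of -0.13 with no call, and UHRF1, which recruits the maintenance DNA methyltransferase to new DNA, was lower, at -0.18 on the log2 scale (edgeR adjusted P = 0.0414).

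Because partners within a complex differed in their calls, 8 pairs were compared directly, as the log2 ratio of their CPM in each library. The pairs were chosen with earlier results of these data known. Their ratios use the same values as the calls and give no separate support for them. How often ratios of other gene pairs lie apart was not computed. The ratio of POLA1 to POLA2 was 0.032 ± 0.21 in untreated and -0.40 ± 0.11 in IR libraries (mean ± SD, n = 3), a difference of -0.44 (two-sided exact permutation P = 0.1, 0.16 adjusted over the 8 pairs). That of POLD3 to POLD1 differed by -0.72, that of CHAF1A to CHAF1B by -0.16, that of PRIM1 to PRIM2 by -0.081 and that of CDT1 to GMNN by 0.37, each without overlap and each with the same exact P. With 3 libraries against 3 the smallest P this test allows is 0.1, so none of these could pass a threshold of 0.05. CDC7 to DBF4 (-0.11, exact P = 0.2), TIMELESS to TIPIN (0.048, 0.8) and POLE to POLE2 (-0.044, 0.8) overlapped between groups. After correction of each library for its trend with GC content, the difference for CDT1 and GMNN became -0.11 and that for POLD3 and POLD1 -0.25, while that for POLA1 and POLA2 was -0.34 and that for CHAF1A and CHAF1B -0.33. That for POLE and POLE2 became -0.35, about the size of the one for POLA1 and POLA2. CDC7 and DBF4 were then at -0.11, TIMELESS and TIPIN at -0.089, and PRIM1 and PRIM2 at -0.065. These corrected differences were not tested.

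Base composition moved with the fold changes. Over all tested genes the log2 fold change rose with the GC content of the transcripts (Pearson r = 0.44 and Spearman rho = 0.50 across 14322 genes of the same 6 libraries, which are not independent replicates), and over the 51 members, whose GC content ran from 37.7% to 64.6%, r was 0.41 and rho 0.28. After that trend had been removed from each library, 21 members (41.2%) were lower and 1 was higher, against a background of 12.6% lower and 11.7% higher. Of these 21, 18 were also lower without the correction. DBF4 (-0.23), GINS1 (-0.15), GINS3 (-0.26) and RFC5 (-0.16) lost the call, GINS3 at nearly its former value (-0.29), and MCM2 (-0.37, adjusted P = 0.00210), MCM5 (-0.40, 0.00106) and LIG1 (-0.19, 0.0334) gained it, so that all 6 genes of the MCM2-7 ring were lower on this scale. The GC-rich CDT1 and POLD1 turned from 0.21 and 0.30 to -0.17 and -0.10, and POLD2 from 0.057 to -0.15, none of them a call. ORC4 became the 1 member higher (0.28, adjusted P = 0.0262), and PCNA was at 0.11 (adjusted P = 0.444). The members' relation to GC content was negative after the correction (r = -0.38, rho = -0.41, n = 51), so it was reversed and not removed. Of the 10 members over 55% GC, 4 were lower before and 7 after the correction. Of the other 41 members, 18 were lower before and 14 after. Shares for all genes of like GC content were not computed. On the TMM scale the difference of IR replicate 3 from IR replicates 1 and 2 rose with GC content over the members (r = 0.53, rho = 0.51, n = 51).

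**Figure D4:**
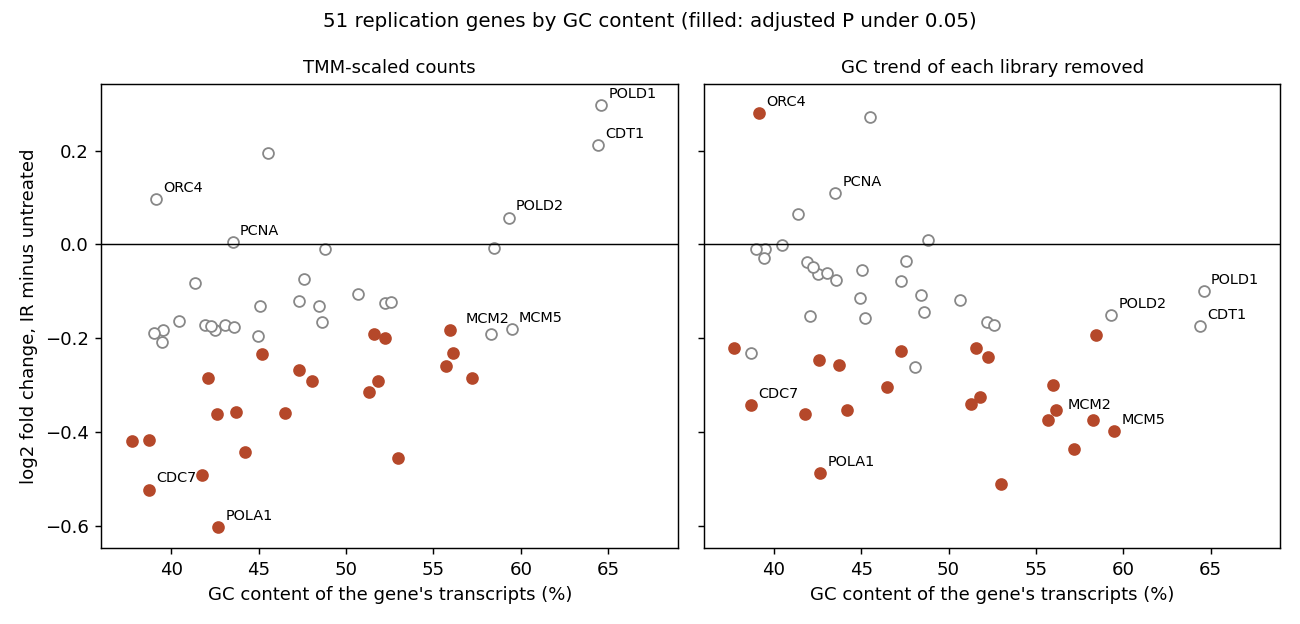
Log2 fold change (y axis, IR minus untreated) of the 51 genes against the GC content of their transcripts in percent (x axis), from TMM-scaled counts on the left and with the GC trend of each library removed on the right; filled points passed an adjusted P under 0.05. The 3 GC-rich genes POLD1, CDT1 and POLD2 move from above to below 0, MCM2 and MCM5 become called, and POLA1 and CDC7 stay called.

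A second scale allowed for the effective length that kallisto estimated for each transcript in each library. With this offset 6 members (11.8%) were lower, against a background of 6.11%, and the median log2 fold change of all 51 was -0.22. POLA1 (-0.66), POLD3 (-0.72), CDC7 (-0.58), MCM8 (-0.50) and DBF4 (-0.47) kept their calls. ORC4 turned to -0.51 (adjusted P = 0.0146), in parallel with its deposited TPM of 56.5 ± 2.95 in untreated and 38.5 ± 2.77 in IR libraries, so its direction differed between scales. POLA1, CDC7, MCM8 and POLD3 were the 4 genes called lower on all 3 scales and with each library left out in turn.

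Counting could mix some members with their neighbours. The exons of 17 members overlap those of another gene in the files, among them FEN1 with FADS2, GINS1 with NINL and TICRR with KIF7, and whether reads were assigned by strand is not given in the sources used here. Of the 34 members without such an overlap 13 were lower after IR, POLA1, CDC7 and MCM6 among them. Of all tested genes, with or without an overlap, 14.5% were lower. CDC45, GINS3 and POLD3, also among the 13, overlap exons of annotated genes that were not counted.

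Transcript usage, meaning the share of a gene's counts that each of its transcripts takes, was tested for the 49 members with at least 2 transcripts above the filter (edgeR diffSpliceDGE with Simes P values). It was called in 2 of them, POLD3 (adjusted P = 0.00585) and POLE (adjusted P = 0.0104), against a background of 2.68% of all genes tested. In POLD3 the transcript POLD3-204 was estimated at 5.72, 5.78 and 4.39 TPM in the untreated libraries and is listed at 0 in all 3 IR libraries, and POLD3-208 at 7.86, 7.51 and 7.86 TPM before and 2.59, 3.20 and 0 TPM after IR. The main transcript, POLD3-201, was at 13.8, 13.7 and 15.4 TPM in untreated and 12.7, 11.1 and 12.2 TPM in IR libraries, so most of the lower POLD3 total lay in the other transcripts. In POLE the transcript POLE-218, annotated as a target of nonsense-mediated decay, is listed at 0 in every untreated library and was estimated at 0.884, 1.54 and 3.82 TPM after IR. These transcripts share most of their sequence with others of the gene, so kallisto's division of reads among them is an estimate. With the replicate number as a block neither call held. PCNA was carried almost wholly by PCNA-201, at 249, 240.0 and 313 TPM in untreated and 242, 262 and 285 TPM in IR libraries.

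Of 30 other replication genes on a fixed list, 11 were lower and 3 higher, against a background of 14.5% lower and 15.5% higher. Their median log2 fold change was -0.17. Of lowest P among the lower genes were ATAD5, whose product unloads PCNA (-0.71, SE 0.090, edgeR adjusted P = 0.000762), CLSPN, which encodes the fork mediator Claspin (-0.51, 0.080, 0.00190), and MTBP, the partner of Treslin (-0.47, 0.075, 0.00208). The 3 higher genes were TONSL, a reader of new histones (0.43, edgeR adjusted P = 0.00600), CHTF18, a subunit of an alternative clamp loader (0.41, 0.0273), and POLD4, the smallest subunit of polymerase delta (0.52, 0.0467). With the GC trend removed these 3 were at 0.017, -0.014 and 0.22 and were not called, while 11 genes of the list were lower, 9 of them also without the correction, and 0 higher. TONSL kept its call with the effective length offset (0.53, edgeR adjusted P = 0.0294), while CHTF18 (0.45) and POLD4 (0.70) did not pass the test. On that scale 5 genes of the list were lower and 1 was higher.

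Markers of cycling cells were mostly lower too. Of 11 such genes 8 were lower and 0 higher, against a background of 14.5% lower and 15.5% higher. Their median log2 fold change was -0.44, beside -0.18 for the replication genes. Lower genes numbered 9 with the GC trend removed (background 12.6%) and 5 with the effective length offset (background 6.11%). With that offset TOP2A (-0.42), AURKA (-0.32) and CENPF lost the call. MKI67, which encodes the proliferation antigen Ki-67, read 706, 769 and 673 CPM in untreated and 391, 346 and 269 CPM in IR libraries (log2 fold change -1.10). CCNA2, the cyclin of S and G2 phase, had a log2 fold change of -0.44, CCNE2, a cyclin of the G1/S transition, of -0.71, and CENPF, a G2/M gene, of -0.86 (-0.34 with the effective length offset, adjusted P = 0.0521). CCNB1, CCNE1 and CDC20 did not pass the test, at -0.019, 0.098 and -0.097, though CDC20 was called lower with the GC trend removed (-0.24, adjusted P = 0.0137). The part of the share of cycling cells in the members' values was not tested.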

How the data were processed

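Bulk RNA-seq of 3 untreated and 3 IR libraries of U-2 OS cells was used. The authors trimmed reads with fastp and assigned them with kallisto to GENCODE release 37 of GRCh38. The deposited files hold, for each transcript, raw estimated counts, the authors' TPM (scaled for effective length and library total), a length and an effective length. The labels name a poly(A) mRNA kit, and the paper a total RNA kit.

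Transcripts were matched to GENCODE release 44 (158591 of 161171, with at least 98.2% of the counts), and the deposited estimated counts were added up by gene and rounded to integers. After filterByExpr and TMM, groups were compared by glmQLFit with glmQLFTest in edgeR 4.0.16 (R 4.3.3, limma 3.58.1) with Benjamini-Hochberg adjustment at 0.05. Standard errors are the size of the log2 fold change divided by the root of F. DESeq2 1.42.0 was an alternative. GC trends were lowess fits per library (span 0.3), removed as offsets. The scripts were tested on simulated data. Replicates differed by more than sampling noise in every pair.

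The members were listed by name, with no measured value in the rule, but they, the lists and the tests were chosen with earlier results of these data known. Every member is named. CPM per library is given for PCNA, CDC6, CDT1, GMNN, the 10 members of lowest P and the 3 highest and 3 lowest log2 fold changes, and for the other replication genes the 3 of lowest P in each direction are named.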

Additional observations from a re-analysis of the deposited data

How the results depend on the processing

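None of the 22 genes called lower changed direction under any of the 15 settings tried, and 12 of them were called with each library left out in turn (CDC45, CDC7, CHAF1A, DBF4, MCM10, MCM6, MCM8, POLA1, POLD3, RFC1, TICRR and WDHD1). Members lower numbered 6 with the effective length offset and 13 to 25 with 1 library left out (13 without untreated replicate 1). Calls were lost for 17 of the 22 with the length offset, 7 with the replicate block, 4 with the GC trend removed and 3 with no filter on low counts, and for 0 with DESeq2, DESeq2 size factors, the likelihood ratio test or at least 10 counts in every library. In a setting added after seeing the data, 13 were lower among the 34 members with no exon overlap with another counted gene. Members higher numbered 1 by the DESeq2 Wald test and 1 by the likelihood ratio test of edgeR (POLD1 in both), 1 with the GC trend removed and 1 with that and the replicate block (ORC4 in both), and 0 to 2 with 1 library left out (CDT1 and POLD1 without IR replicate 2). The members' median was -0.22 with the length offset and -0.21 to -0.16 with 1 library left out. Over all genes, 875 were lower and 836 higher with the length offset (2080 and 2226 without), 1473 were higher with block and GC correction, and leaving out 1 library gave 1244 to 2283 lower and 1293 to 2112 higher, with the low values without untreated replicates 1 and 2. The labels do not say whether the replicate numbers pair the samples. Deviations from the group means were nearly uncorrelated between same-numbered libraries (-0.017, 0.0072 and -0.052), which with 3 libraries per group cannot exclude pairing. With the replicate numbers as a replicate block 15 members, 1624 genes lower and 1725 genes higher were called. Transcript usage was called in 0 members and 149 genes with the replicate block, in 4 and 518 with at least 10 counts in every library of a group, and in 1 to 3 and 228 to 444 with 1 library left out (1 member without IR replicate 3, and 444 genes without untreated replicate 3).

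The directions that turned all belong to members with no call on the TMM scale. With the GC trend removed, alone and with the block, CDT1 was -0.17 and -0.18, POLD1 -0.10 and -0.10, POLD2 -0.15 and -0.15, PRIM2 0.064 and 0.060, and GINS4 0.0084 and 0.0036. With the length offset ORC4 was -0.51, POLD2 -0.11, GINS4 0.17 and RPA1 0.10. PCNA was -0.00216 with DESeq2 size factors and -0.00222 by DESeq2. With 1 library left out PCNA ran from -0.075 to 0.13, GINS4 from -0.084 to 0.048 and LIG1 from -0.038 to 0.011. Where values moved, the cause was not tested. Each member had at least 520 counts in every library.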
